A study of Mus musculus with 14 samples.

Results

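The 8 libraries made from mouse marrow after enrichment of hematopoietic stem and progenitor cells (HSPCs) differed in the share of their counts that was assigned to a single gene, Gm26917. In 4 of the 8 HSPC libraries Gm26917 took more than 25% of all counts (high share), and in the other 4 it took less (low share). The series held 14 libraries in all, the other 6 from HSPCs transformed with the MLL-AF9 fusion gene. Each class held 2 wild-type (WT) libraries and 2 libraries from mice without Mir139 (Mir139KO). The high class was WT HSPC replicates 3 and 4 and Mir139KO HSPC replicates 1 and 4, and the low class was WT HSPC replicates 1 and 2 and Mir139KO HSPC replicates 2 and 3. The classes were therefore defined by a measured value and are no groups of the study.

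All HSPC donors were C57BL/6 mice of 8 to 20 weeks. The Mir139KO line had been made with a Cas9 nickase and guides on both sides of Mir139. The MLL-AF9 libraries came from WT HSPCs transduced with a retrovirus carrying MLL-AF9 and a neomycin or puromycin resistance gene, selected and replated. HSPCs had been enriched with a commercial kit from femur and tibia. The labels name no separate donor for each library, so p-values measure only the spread between these libraries, which may in part be technical. Mir139 was listed at 0 in all 14 libraries and its host gene Pde2a had 0 to 2 counts, so neither could check the genotype labels.

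Stem and progenitor cells of the marrow divide and give rise to all blood lineages, and a preparation enriched for them also holds maturing blood cells. The libraries were made from total RNA after removal of ribosomal RNA, in which probes bind the ribosomal RNA and the hybrids are digested. Such libraries keep RNAs without a poly(A) tail, among them the messages of replication-dependent histones, 7SL RNA (the RNA of the signal recognition particle), 7SK RNA (which restrains transcription elongation) and the RNA subunits of RNase P and RNase MRP. Ribosomal RNA makes up most of a cell's RNA.

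Gm26917 (ENSMUSG00000097971) is annotated in GENCODE as a long intergenic noncoding RNA of 1 exon on the plus strand of chromosome 17 (build GRCm38, chr17:39843013-39846341). Its transcript of 3329 bases was 69.1% G and C. RefSeq places the next gene on chromosome 17, the 18S ribosomal RNA-like pseudogene Rn18s-rs5 (chr17:39846354-39848202), only 12 bases after the end of Gm26917. The following sequences are shown because base composition separated the genes that were higher from those that were lower in the high-share libraries. They read 5′ to 3′ with each G and C in capitals, and come from the GENCODE M21 transcripts on GRCm38. The first is the start of Gm26917 (chr17:39843013-39843212) and the others are the first 120 coding bases of the linker histone Hist1h1b (minus strand, gene at chr13:21779883-21780625) and of the translation initiation factor gene Eif3e (minus strand, gene at chr15:43250058-43282719).
Gm26917, first 200 bases: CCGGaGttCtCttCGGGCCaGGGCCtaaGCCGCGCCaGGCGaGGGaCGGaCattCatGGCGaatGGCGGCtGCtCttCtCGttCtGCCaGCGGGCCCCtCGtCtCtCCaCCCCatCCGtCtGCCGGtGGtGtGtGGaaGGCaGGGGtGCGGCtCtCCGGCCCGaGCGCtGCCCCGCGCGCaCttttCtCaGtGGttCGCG
Hist1h1b, coding start: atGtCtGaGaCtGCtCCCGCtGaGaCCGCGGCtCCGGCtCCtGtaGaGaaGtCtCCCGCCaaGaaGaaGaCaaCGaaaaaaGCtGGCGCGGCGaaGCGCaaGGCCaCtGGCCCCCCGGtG
Eif3e, coding start: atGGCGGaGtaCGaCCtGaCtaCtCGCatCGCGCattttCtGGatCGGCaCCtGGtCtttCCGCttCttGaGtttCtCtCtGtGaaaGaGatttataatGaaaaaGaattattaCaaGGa
The whole coding part was 57.4% G and C in Hist1h1b, against 41.3% in Eif3e. Hist1h1b was among the genes with the largest positive differences between the classes, and Eif3e among those with the largest negative ones. No stretch of 50 bases among the 3280 in Gm26917 was found in another annotated transcript on either strand. Only annotated transcripts were searched, so copies outside them, of ribosomal RNA repeats or others, could not be found. The source of the Gm26917 counts was not tested.

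The share of Gm26917 was 17.0% and 17.8% in WT HSPC replicates 1 and 2, and 21.3% and 21.9% in Mir139KO HSPC replicates 2 and 3. In the high class it was 35.4% and 33.6% in WT HSPC replicates 3 and 4, and 35.1% and 32.7% in Mir139KO HSPC replicates 1 and 4. The highest library under the threshold and the lowest above it were thus Mir139KO HSPC replicate 3 (21.9%, 95% Wilson interval 21.92 to 21.94%) and Mir139KO HSPC replicate 4 (32.7%, 95% Wilson interval 32.68 to 32.71%). The 6 MLL-AF9 libraries lay below every HSPC library, at 7.55 to 10.4%. Mean shares were 27.8 ± 7.17% in Mir139KO (SD, n = 4) and 25.9 ± 9.92% in WT HSPCs (SD, n = 4), a difference of 1.81 points that was smaller than the spread between libraries and turned to -1.17, -0.91 and -0.64 points without WT HSPC replicate 1, WT HSPC replicate 2 or Mir139KO HSPC replicate 1. The mean of the HSPC libraries exceeded that of the MLL-AF9 libraries by 17.7 points. The share is the value that divided the libraries, so these differences are a description and no test is attached to them. The intervals cover counting error only. Of the library identifiers in the labels, 3 pairs shared their first 5 digits. Of these pairs, 2, both Mir139KO, were split between the classes and 1, of WT, was not, and what the digits stand for is not given in the sources used here.

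**Figure D1:**
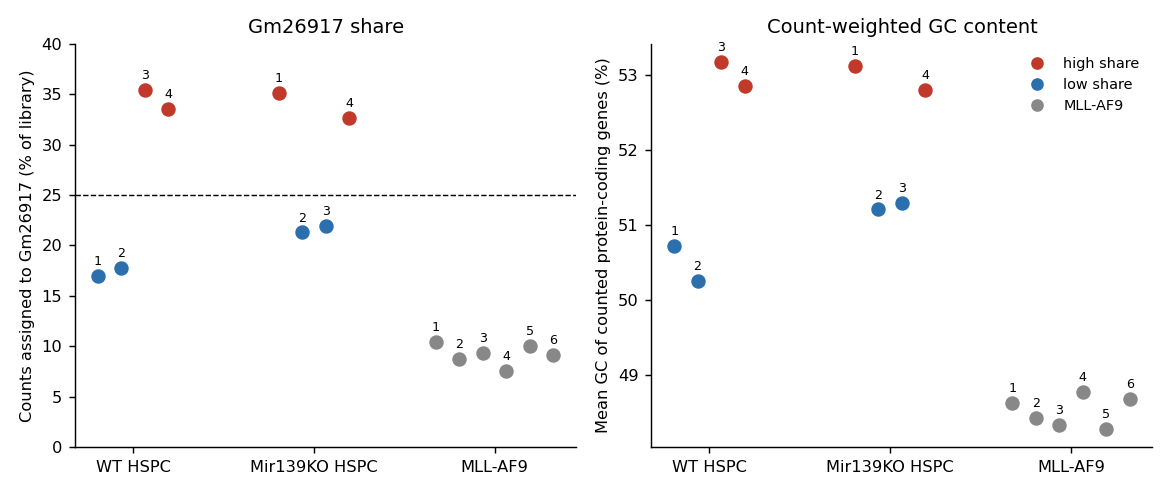
Left, the percentage of counts assigned to Gm26917 in each of the 14 libraries, by group, with replicate numbers above the points and a dashed line at the 25% threshold. Right, the mean GC content of protein-coding genes weighted by their counts in the same libraries, on an axis that does not start at 0. High-share HSPC libraries (red) lie at 32.7 to 35.4% in the left panel and at 52.8 to 53.2% in the right, low-share libraries (blue) at 17.0 to 21.9% and 50.3 to 51.3%, and MLL-AF9 libraries (grey) at 7.55 to 10.4% and 48.3 to 48.8%.

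Total counts of the HSPC libraries were 35016668 to 45877994 and their ranges overlapped between the classes. Genes with at least 10 counts numbered 15012 to 15625 in the low-share and 14208 to 14664 in the high-share libraries. At an equal number of counts outside Gm26917, these were 14636 to 14981 and 14110 to 14399, so the low-share libraries still showed more genes. WT HSPC replicate 2 stood apart in RNAs of ribosomes and in neutrophil genes, as given beside those genes below. The first principal component of log2 CPM (counts scaled to a common library size with TMM factors) held 69.9% of the variance over the 8 libraries and placed all high-share libraries on one side and all low-share libraries on the other.

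Between the classes, genes of a very wide range of functions differed in level. With genotype as a covariate, edgeR's quasi-likelihood test placed 4953 of 15056 tested genes higher (32.9%) and 5496 lower (36.5%) in the high-share libraries at a Benjamini-Hochberg adjusted p under 0.05, the threshold at which a gene is called here. Because the libraries were divided by a count of the same data, these calls are a description of the split and no evidence for it. All 4 libraries of a class lay above all 4 of the other for 4630 genes higher (30.8%) and 5187 genes lower (34.5%) in the high-share class. The median difference over all tested genes was -0.02 on the log2 scale, with an interquartile range from -0.91 to 0.70, and 4933 called genes differed by at least 1. Scaled by total counts only, the median was -0.70 and 13.97% of calls were higher in place of 47.4%, so directions below are relative to a scale on which the median gene lay near 0. Without WT HSPC replicate 2, 9883 genes were called in place of 10449.

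The differences followed base composition closely. Genes with much G and C were higher and genes with little were lower in the high-share libraries, with a Spearman rho of 0.74 between the log2 difference and transcript GC content across 15038 genes. Genes share libraries and are no independent replicates, so no test is attached to it. In the quintile of genes with the lowest GC content (31.0 to 44.3%), 1.80% were called higher and 80.4% lower, with a median log2 difference of -1.17. In the quintile with the highest GC content (55.4 to 78.3%), 77.7% were called higher and 1.83% lower, with a median of 0.88. The medians of the 3 quintiles between were -0.72, -0.09 and 0.51, so they increased at each step. Every one of the 16 pairs of a high-share and a low-share library showed the relation, with rho from 0.63 to 0.75. The pairs reuse the same libraries and are not independent. Within genotypes, which share no library, rho was 0.72 for WT and 0.71 for Mir139KO.

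**Figure D2:**
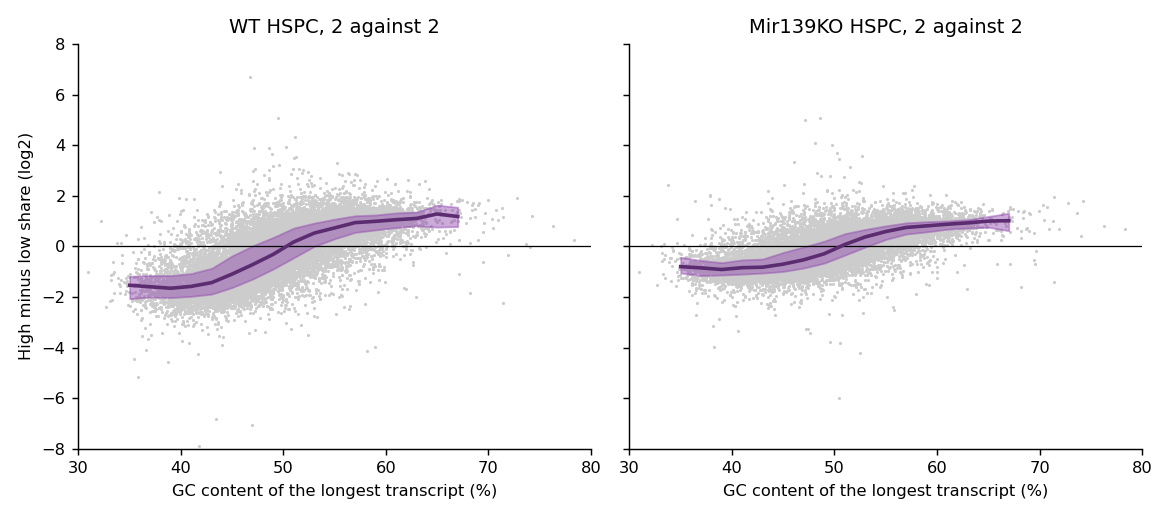
Log2 difference between high-share and low-share libraries against the GC content of the longest transcript, in WT HSPCs (left) and Mir139KO HSPCs (right), 2 libraries against 2 in each. Grey points are genes, the line is the median in bins of 2 percentage points with at least 20 genes and the band their interquartile range. In both genotypes the medians are below 0 at low and above 0 at high GC content.

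Among 12760 protein-coding genes rho with transcript GC content was 0.78. It was 0.71 with the GC content of the coding part (12758 genes) and 0.68 with that of the 3′ untranslated region (12523 genes), but 0.04 with that of the 5′ untranslated region (11176 genes). Longer genes tended to be lower, with rho of -0.32 for the summed length of exons and -0.35 for the length of the 3′ untranslated region. For the length of the coding part it was -0.11. The number of exons gave -0.16. Mean level gave 0.18, so abundance as such bore a weaker relation to the difference than base composition did.

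Each library's own counts showed the same shift. The mean GC content of protein-coding genes, weighted by their counts, was 50.9 ± 0.48% in low-share libraries (SD, n = 4) and 52.99 ± 0.19% in high-share libraries (SD, n = 4), without overlap. MLL-AF9 libraries, with the lowest Gm26917 shares, had the lowest value, 48.5 ± 0.20% (SD, n = 6). These are other cells after culture, so cell type and library composition cannot be told apart in that order.

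After a correction that removed a smooth function of GC content from each library, 6654 genes were called, 3201 higher and 3453 lower. Of these, 5117 had been called in the same direction without it and 249 in the opposite direction. Gm26917 itself differed by 1.4996 on the log2 scale before and 0.67 after it. Some called genes named in the rest of the Results were not called after it. They included Malat1, mt-Co1, Ncl, Prpf8, Ifit2, Tfrc, Igha, Klre1, Zap70, Prss34, Fcer1a, Ms4a2, Psmc3, Ccng1, Serp1, E2f1, Gata2, Kit, Klf1 and Rpl5. Among called genes named only in the closing sections, Ubtf, Spi1, Atp5a1, Il2rb, Aqp1, Zfp445 and Uty were also not called after it.

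RNAs that form part of abundant ribonucleoprotein machines were mostly higher in the high-share libraries. Of 13 tested genes in a list of structural noncoding RNAs, 11 were called higher and 0 lower, against 32.9% and 36.5% of all genes. The median log2 difference of the list was 1.45 (0.81 after GC correction), against -0.02 over all genes. A further 8 listed symbols, such as Rnu11, were at 0. Rpph1, the RNA subunit of RNase P that trims transfer RNA precursors, had 5119, 5958, 7726 and 7741 CPM in the low-share and 17077, 20853, 25621 and 19983 CPM in the high-share libraries. All low-share libraries were thus below all high-share libraries, with a log2 difference of 1.67 ± 0.13 (SE). Rn7sk, which encodes 7SK RNA, had 10874 ± 1814 CPM in the low-share and 29722 ± 6399 CPM in the high-share libraries (SD, n = 4 each). Rn7s1, a 7SL RNA gene, had 10.5, 19.0, 22.1 and 18.3 CPM in low-share and 69.9, 60.3, 86.0 and 50.3 CPM in high-share libraries, a log2 difference of 1.95 ± 0.23 (SE). The small Cajal body RNA Scarna2, which guides modification of spliceosomal RNA, differed by 1.72 ± 0.16 (SE). Telomerase RNA (Terc) differed by 1.68 and the RNase MRP RNA Rmrp by 1.41.

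Sequences of 7SL RNA occur in many near-identical copies, so how counts fell among Rn7s1, Rn7s2 (1.75), Rn7s6 (1.98) and unnamed relatives is uncertain. By annotated class, 14 of 17 tested genes of the class that holds 7SL and 7SK RNAs were called higher. So were 15 of 17 small nuclear RNAs and 6 of 6 small nucleolar RNAs. In these classes 0 were called lower, against 32.9% higher and 36.5% lower of all genes. The small nuclear RNAs, many of which build the spliceosome, had a median GC content of 45.6%, within the second-lowest quintile of all genes. Their median log2 difference was 1.14 before and 1.73 after the GC correction. The Y RNAs Rny1 and Rny3, of 43.8 and 45.1% GC, differed by 0.59 and 0.40 and were not called. Of all counts outside Gm26917, the 7SL and 7SK class took 3.18 to 4.75% in high-share and 1.47 to 2.06% in low-share libraries. Rn7sk made up most of this share, so it says little about 7SL RNA. Over the HSPC libraries Rn7sk was at 8800 to 39075 CPM, against 10.5 to 175.3 CPM for Rn7s1, Rn7s2 and Rn7s6.

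Replication-dependent histone genes, whose messages end in a stem-loop in place of a poly(A) tail and which are used while DNA is copied, were higher as a whole and within a narrow band. All 27 tested genes of the list were called higher, against 32.9% of all genes. They differed by 1.46 to 1.70 on the log2 scale, and in each of them the classes did not overlap. A further 5 listed genes, such as Hist1h4b, were at 0 in every HSPC library. Hist1h1b had 670.2, 680.3, 1023 and 898 CPM in low-share and 2483, 2742, 3015 and 2260 CPM in high-share libraries, a log2 difference of 1.70 ± 0.14 (SE). Hist1h1c, another linker histone, differed by 1.69 ± 0.14 (SE). The core histone gene Hist1h4d differed by 1.58 ± 0.12 (SE). After GC correction the median of the list was 1.08 and all 27 were still called higher. Histone genes took 6.59 to 8.55% of the counts outside Gm26917 in high-share and 2.69 to 3.83% in low-share libraries. Histone genes of one type are close copies, so values of single histones are less certain than the sum of the list.

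In a list of 34 tested cell cycle and replication genes, 10 were called higher and 16 lower, against 32.9% higher and 36.5% lower of all genes, with a median of -0.25 (0.15 after GC correction, which turned its sign). Mcm5, a subunit of the replicative helicase, had 410.1 ± 56.9 CPM in low-share and 888.9 ± 18.2 CPM in high-share libraries (SD, n = 4 each). Top2a, the topoisomerase that separates replicated chromosomes, had 438.9, 505.9, 312.8 and 235.5 CPM in low-share and 67.9, 126.8, 108.3 and 157.9 CPM in high-share libraries. Mcm5 was thus higher by 1.13 ± 0.11 (SE) and Top2a lower by 1.66 ± 0.33 (SE) on the log2 scale, although both are used in dividing cells. The mitotic kinase gene Bub1 was lower by 1.93 ± 0.36 (SE), and the replication regulator E2f1 was higher by 0.93.

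**Figure D3:**
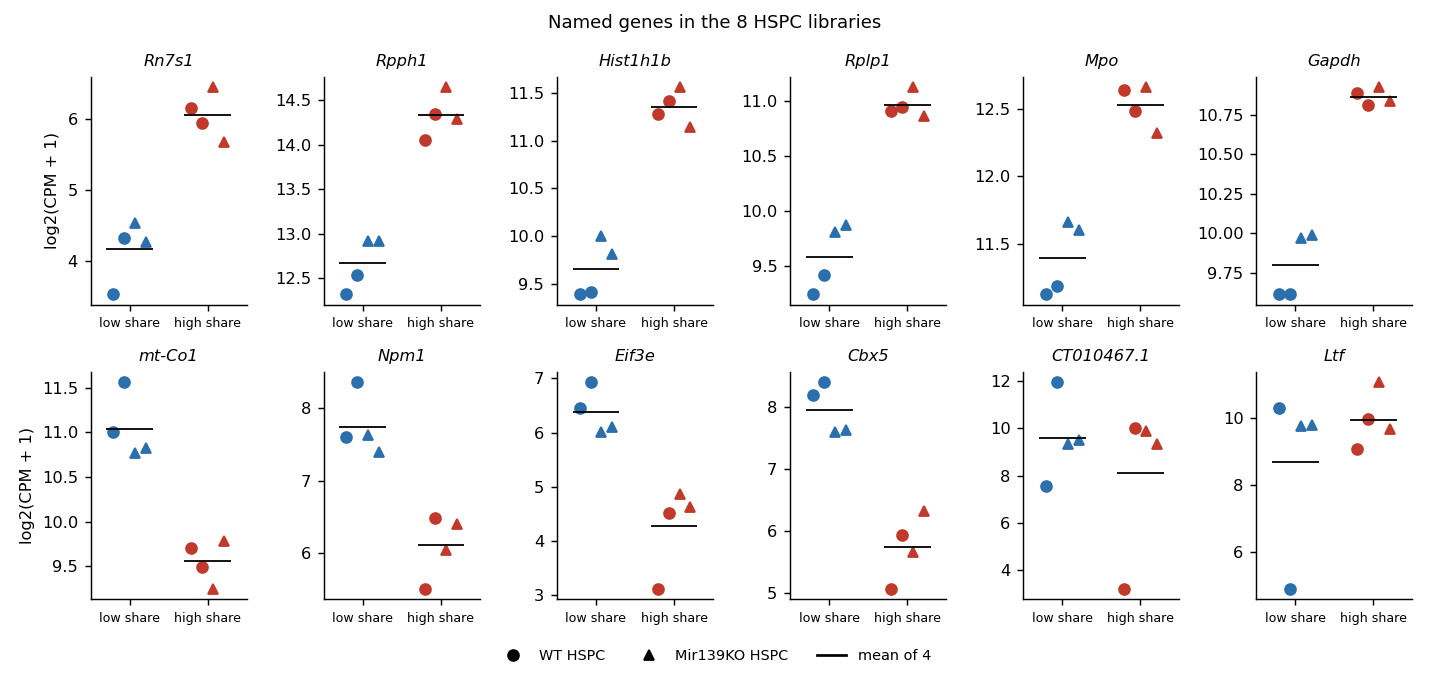
Levels of 12 named genes as log2(CPM + 1) in the 4 low-share (blue) and 4 high-share (red) libraries, with circles for WT and triangles for Mir139KO and a line at the mean of 4. Axes are set for each gene and do not start at 0. In the first 10 panels the classes do not overlap, whereas CT010467.1 and Ltf overlap and each has a WT library far from the others.

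Ribosomal protein genes and nuclear genes of oxidative phosphorylation were mostly higher. Of 74 tested ribosomal protein genes 56 were called higher and 9 lower, against 32.9% higher and 36.5% lower of all genes. Their median was 0.79 (0.61 after GC correction, 0.11 with scaling by total counts only). Rplp1, a protein of the ribosomal stalk, had 604.4, 680.9, 894.7 and 937.5 CPM in low-share and 1921, 1972, 2228 and 1865 CPM in high-share libraries, and its log2 difference was 1.38 ± 0.13 (SE). Rplp0, which anchors that stalk, differed by 1.29 ± 0.11 (SE). Genes of the list that went the other way were Rpl5 (-1.15), Rps3a1 (-1.03) and Rpl4 (-0.82). Rpl13, Rpl35 and Rpl35a were listed at 0 in all HSPC libraries, although cells use them broadly, so a 0 in these tables is no proof that a gene is silent.

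Nuclear genes of oxidative phosphorylation numbered 26 called higher and 3 called lower of 36, against 32.9% and 36.5% of all genes. Their median was 0.92 (0.56 after GC correction, 0.24 with scaling by total counts only). Atp5d, a subunit of ATP synthase, was at 130.1 ± 23.8 CPM in low-share and 331.7 ± 13.5 CPM in high-share libraries (SD, n = 4 each). Uqcrc1, a core subunit of complex III, was higher by 1.32 ± 0.12 (SE), while the complex I gene Ndufs1 was lower by 1.19. Of 23 glycolysis and hypoxia genes 11 were called higher and 3 lower, with a median of 0.43 (0.11 after GC correction), which turned to -0.25 with scaling by total counts only. The glycolytic gene Gapdh, often taken as a reference, had 782.2, 784.2, 1000.5 and 1016 CPM in low-share and 1890, 1799, 1939 and 1826 CPM in high-share libraries. It did not overlap between the classes and differed by 1.07 ± 0.11 (SE).

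The mitochondrially encoded messages, which encode other subunits of the same complexes, went the other way. Of 12 tested, 0 were called higher and 7 lower, against 32.9% and 36.5% of all genes. Their median was -1.05, which became 0.06 after GC correction. mt-Co1, a catalytic subunit of complex IV, had 2056, 3026, 1740 and 1806 CPM in low-share and 830.4, 716.1, 607.4 and 878.6 CPM in high-share libraries. All high-share libraries were below all low-share libraries, by 1.49 ± 0.17 (SE) on the log2 scale. mt-Cytb, the mitochondrial subunit of complex III, was lower by 1.602 ± 0.28 (SE), and mt-Nd1, of complex I, differed by -0.53 ± 0.33 (SE) and was not called. These messages took 0.141 to 0.184% of counts outside Gm26917 in high-share and 0.414 to 0.804% in low-share libraries.

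Among well expressed genes without overlap between the classes (log2 CPM averaging 5 or more), the 10 with the largest negative differences included Cbx5, Mob1a, Uhmk1, Capza1, Eif3e, Galnt1, Ssr3, Api5 and Spcs3. The GC content of these 9 was 36.2 to 44.5%, in the lowest quintile for all but Galnt1, which starts O-linked glycosylation of proteins. Cbx5, the heterochromatin protein HP1 alpha, had 290.9, 336.1, 191.5 and 197.2 CPM in low-share and 32.6, 59.8, 49.4 and 79.1 CPM in high-share libraries, lower by 2.18 ± 0.32 (SE). Eif3e, a subunit of the initiation factor that brings messages to the small ribosomal subunit, had 86.1, 121.2, 63.7 and 67.9 CPM in low-share and 7.70, 21.9, 28.2 and 23.8 CPM in high-share libraries. Its classes did not overlap, at -2.07 ± 0.45 (SE) on the log2 scale. Ssr3 and Spcs3, which serve protein entry into the endoplasmic reticulum, were lower by 2.04 and 2.02. After GC correction these 9 were still called lower, with differences from -1.31 to -0.92. The 10 with the largest positive differences were Rn7s6, Rn7s1, Rn7s2, Scarna2, Hist1h1b, Hist1h1c and 4 unnamed genes of the 7SL and 7SK class.

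Regulators of RNA were lower more often than higher. Of 34 tested splicing factors and nuclear RNA-binding proteins 22 were called lower and 8 higher, against 36.5% lower and 32.9% higher of all genes. Their median was -0.87 (-0.08 after GC correction). Sf3b1, a spliceosome subunit that recognises the branch point, was at 195.7 ± 49.99 CPM in low-share and 59.8 ± 18.8 CPM in high-share libraries (SD, n = 4 each). Prpf8, at the heart of the spliceosome, was higher by 0.40 ± 0.15 (SE), a direction that turned when libraries were scaled by total counts only (-0.27). Zinc finger repressors with a KRAB domain, which silence transposable elements, were called lower in 42 and higher in 0 of 49 tested genes, with a median of -1.16 (-0.34 after GC correction). Zfp870 had 4.16 ± 0.36 CPM in low-share and 1.04 ± 0.32 CPM in high-share libraries (SD, n = 4 each).

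CT010467.1 (ENSMUSG00000106106, chr17:39846353-39848827) is annotated as ribosomal RNA on the minus strand, next to Gm26917. On either strand, 66.4% of its 50-base stretches also occur in another annotated gene, Gm42418. With 616 bases between it and Gm26917, Gm42418 starts within the span of CT010467.1, so these stretches need not be separate copies. CT010467.1 had 190.5, 4001, 656.8 and 722.6 CPM in WT HSPC replicates 1 and 2 and Mir139KO HSPC replicates 2 and 3. In the high-share libraries it had 8.34 and 1049 CPM in WT HSPC replicates 3 and 4, and 958.9 and 641.8 CPM in Mir139KO HSPC replicates 1 and 4. The classes overlapped and the gene was not called (-0.89 ± 1.58, SE), with the extremes in WT HSPC replicates 2 and 3. Gm42418 and AY036118, the other ribosomal RNA-like genes nearby, were listed at 0 in all 14 libraries. RefSeq gives Gm42418 as a synonym of its Rn18s-rs5, although GENCODE starts Gm42418 further along the chromosome. All of the 50-base stretches of AY036118 and 94.9% of those of Gm42418 also occur in other annotated transcripts on either strand. These too need not be separate copies.

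Of the other tested genes in the list of ribosomal RNA-like and nucleolar genes, Lars2, a mitochondrial tRNA ligase, differed by -0.20 ± 0.44 (SE) and Gm24187 by 0.18 ± 0.77 (SE), and neither was called. The mitochondrial ribosomal RNA mt-Rnr1 had 25.6, 655.6, 16.3 and 19.4 CPM in low-share and 1.02, 18.3, 7.38 and 3.24 CPM in high-share libraries. WT HSPC replicate 2 was far above all the others, and the gene was not called. Of 34 tested genes of RNA polymerase I and ribosomal RNA processing 15 were called higher and 14 lower, close to the 32.9% and 36.5% of all genes, with a median of 0.001. Npm1 and Ncl, abundant nucleolar proteins, were lower by 1.63 ± 0.28 and 1.65 ± 0.39 (SE). Taf1d, a subunit of the polymerase I promoter factor, had 242.4, 319.3, 384.9 and 379.5 CPM in low-share and 785.9, 743.5, 922.0 and 713.9 CPM in high-share libraries. It was higher by 1.27 ± 0.14 (SE), or by 2.41 after GC correction, at a transcript GC content of 40.2%. Nuclear long noncoding RNAs and hosts of small nucleolar RNAs were also split, with 3 called higher and 6 lower of 14 and a median of -0.08 (0.73 after GC correction). The growth arrest RNA Gas5 in that list turned from -0.36 to 0.67, called both times.

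Lists of blood cell types follow, to be read against the 32.9% of all genes that were called higher and the 36.5% called lower. In bulk samples, fewer cells of a type and less RNA per cell cannot be told apart. Of 35 tested stem and progenitor genes 7 were called higher and 16 lower, with a median of -0.25 (-0.24 after GC correction), and 1 listed gene (Lyl1) was at 0. The summed level of the list was 2269 to 2599 CPM in low-share and 1912 to 2080 CPM in high-share libraries. Kit, the stem cell factor receptor and a progenitor marker, had 161.8, 199.0, 193.0 and 216.0 CPM in low-share and 151.6, 141.3, 117.3 and 154.7 CPM in high-share libraries. Kit was thus present in every library and lower by 0.44 ± 0.13 (SE). Cd34, another progenitor marker, overlapped between the classes (-0.14 ± 0.16, SE). The SLAM family gene Cd48 was lower by 1.70 ± 0.17 (SE), and the stem cell transcription factor Hlf was lower by 1.53 ± 0.20 (SE). Gata2, which stem cells need, was higher by 0.63.

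Primary granule genes, made by neutrophil precursors, were called higher in 9 and lower in 1 of 14, with a median of 0.71 (0.37 after GC correction). Mpo, the myeloperoxidase gene, had 2230, 2332, 3242 and 3107 CPM in low-share and 6385, 5755, 6482 and 5123 CPM in high-share libraries. The classes did not overlap, with a difference of 1.14 ± 0.14 (SE). The neutrophil elastase gene Elane was higher by 1.11 ± 0.13 (SE). Genes of late neutrophils moved with single libraries. Ltf, which encodes lactoferrin, had 1268, 29.0, 870.0 and 887.1 CPM in low-share and 539.5, 995.6, 2159 and 821.9 CPM in high-share libraries. In WT HSPC replicate 2 it was far below all the others, and the classes overlapped. Of 20 tested genes of that list 1 was called higher and 1 lower, and their summed level was 792.2 to 9271 CPM in low-share and 3159 to 12097 CPM in high-share libraries. The part of late neutrophils in the other differences was not tested.

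Beside the 32.9% higher and 36.5% lower of all genes, the counts of the next lists are a description only. Erythroid genes were called higher in 12 and lower in 8 of 28, with a median of 0.4996 (0.17 after GC correction), and Alas2, which makes heme in red cell precursors, was listed at 0. Tfrc, the transferrin receptor through which red cell precursors take up iron, was lower by 1.47 ± 0.30 (SE) but at -0.35 and not called after GC correction, whereas the erythroid regulators Klf1 and Gata1 were higher by 1.20 and 1.11. Monocyte, macrophage and dendritic cell genes were higher in 11 and lower in 6 of 26. In that list C1qa, a complement component of macrophages, was higher by 1.48 ± 0.19 (SE), and the chemokine receptor gene Ccr2 was lower by 2.11 ± 0.50 (SE). T and NK cell genes were higher in 15 and lower in 5 of 31, with Zap70, a kinase of the T cell receptor, higher by 1.20. The NK receptor gene Klre1 was lower by 1.396, at a low level of 0.16 to 1.17 CPM over the HSPC libraries. B lymphoid genes were higher in 5 and lower in 3 of 20, with Cd79b, of the B cell receptor, higher by 1.12 and the interleukin 7 receptor gene Il7r lower by 1.90. Stromal genes were higher in 7 and lower in 1 of 21. The collagen gene Col1a1, from bone-forming cells, ranged from 109.5 to 635.0 CPM in low-share and from 274.3 to 1265 CPM in high-share libraries and was not called. The medians of the monocyte, T and NK cell and B lymphoid lists were 0.30, 0.43 and 0.39. Scaled by total counts only, they turned to -0.38, -0.25 and -0.29, and that of the erythroid list to -0.18.

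Within these lists the members divided by base composition. Of the 32 lists, 21 held at least 2 genes called in each direction. In each of these 21 the median GC content of the members called higher exceeded that of the members called lower, by 4.33 to 12.9 percentage points. The relation held over all tested genes (rho of 0.74), so most lists would show it. It is a description and no trait of these lists. In the erythroid list the medians were 56.0% for the 12 higher and 43.5% for the 8 lower members. Among stem and progenitor genes they were 57.5% and 45.3%, and among cell cycle genes 52.2% and 44.1%. The smallest gap was in ribosomal protein genes, with 52.3% and 48.0%.

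Proteasome subunits were higher in 18 and lower in 10 of 33, against 32.9% and 36.5% of all genes, with the regulatory subunit gene Psmc3 higher by 0.78 (0.20 and not called after GC correction) and the deubiquitinase subunit gene Psmd14 lower by 1.64. Megakaryocyte genes were higher in 6 and lower in 2 of 19, and the platelet lineage factor Nfe2 was higher by 0.97. MHC class II and antigen loading genes were higher in 5 and lower in 0 of 9, with a median of 0.70 (0.33 after GC correction), and H2-DMa, which helps load peptides, was higher by 1.24. Plasma cell genes were higher in 7 and lower in 2 of 16. The IgA gene Igha was higher by 1.26, although its classes overlapped, and the IgM gene Ighm was at 0.26 and not called. The plasma cell marker Jchain was lower when scaled by total counts only, where the median gene differed by -0.70 on the log2 scale. It had 246.2, 351.1, 270.0 and 292.5 CPM in low-share and 67.5, 44.7, 132.6 and 124.5 CPM in high-share libraries. Mast cell, basophil and eosinophil genes were higher in 2 and lower in 5 of 17, with a median of -0.73 (0.07 after GC correction). Their summed level was higher, at 825 to 1338 CPM in low-share and 1357 to 1767 CPM in high-share libraries. Prss34, a basophil protease gene and the most abundant of the list, was higher by 0.88. Fcer1a and Ms4a2, which differed most in that list, were lower by 1.69 and 1.67 and not called after GC correction. The basophil protease gene Mcpt8 was at 0.14 and not called.

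The lists of stress responses stand against the same shares of all genes, 32.9% higher and 36.5% lower. Immediate early genes were higher in 8 and lower in 2 of 23, with a median of 0.31 (0.0075 after GC correction), the AP-1 gene Jund higher by 1.26 and Myc at 0.22 and not called. Heat shock and unfolded protein genes were higher in 3 and lower in 7 of 23, and the chaperone gene Hspa8 differed by -0.46 and was not called. Interferon-stimulated genes were higher in 7 and lower in 7 of 28, with the signalling factor Irf9 higher by 0.49 and Ifit2, an antiviral RNA-binding protein, lower by 1.45. Genes of p53 and cell death were higher in 7 and lower in 9 of 20, with Trp53 itself higher by 1.05 and the p53 target gene Ccng1 lower by 1.58. All 4 tested sex-linked transcripts were lower, with a median of -1.23 (-0.09 after GC correction). Y-linked members of that list had counts in all 8 HSPC libraries, and Xist was listed at 0 in each. Of 20 genes that the study had singled out, some on these samples and others on other data, 7 were higher and 9 lower.

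**Figure D4:**
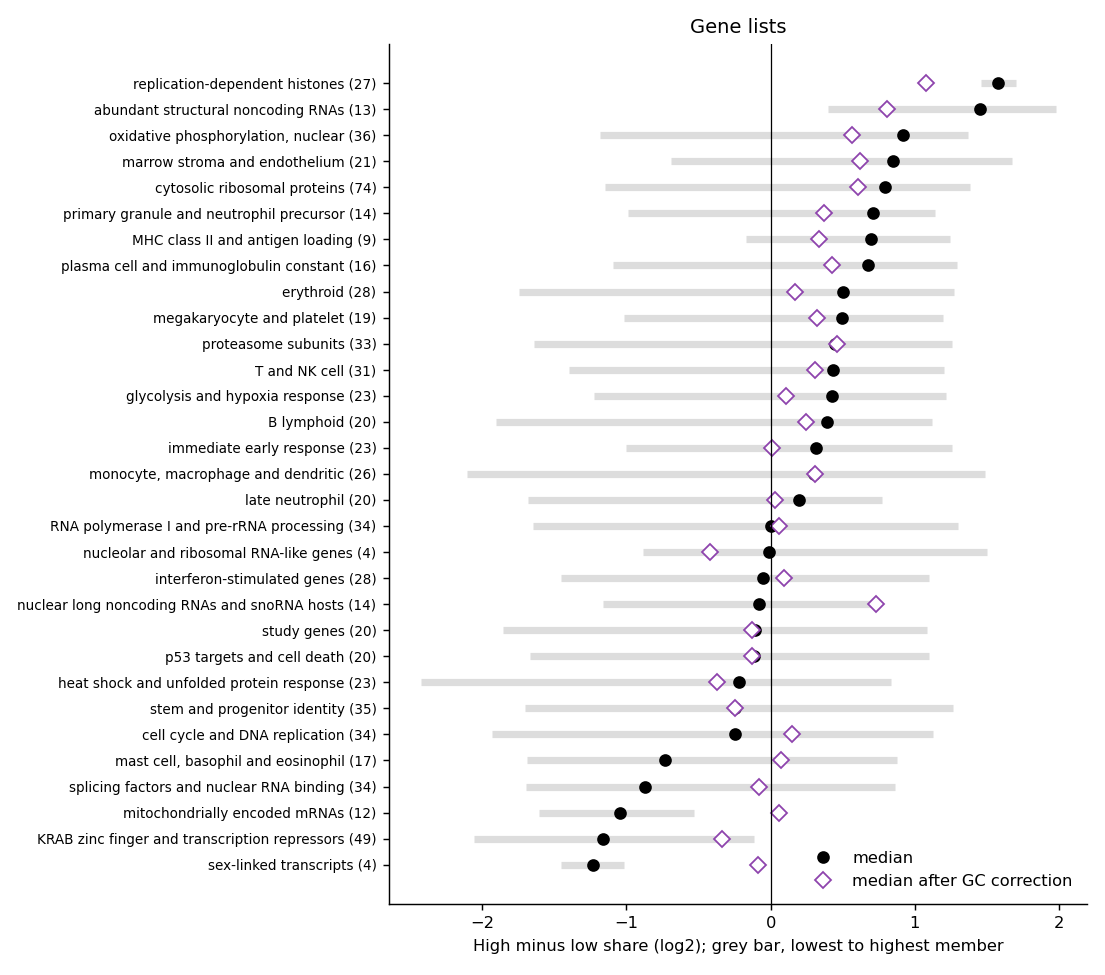
Log2 difference between high-share and low-share libraries for 31 gene lists with at least 4 tested members, whose number follows each name. Black dots are medians, open diamonds medians after GC correction and grey bars run from the lowest to the highest member. Histones form the narrowest bar, at 1.46 to 1.70, and the bars of most other lists cross 0.

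The split was seen in both genotypes, which have no library in common. The log2 differences in WT and in Mir139KO had the same sign in 89.8% of the 15056 genes, with a Pearson r of 0.85 and a Spearman rho of 0.88 across genes, which are not independent replicates. Differences were wider in WT, with an SD over genes of 1.16 against 0.79 in Mir139KO, and so was that of Gm26917 itself, at 1.72 in WT and 1.27 in Mir139KO. A test of whether the difference between classes itself differed between genotypes called 0 genes (0%) with edgeR's quasi-likelihood test, although 2457 had an unadjusted p under 0.05, 16.3% of those tested. DESeq2 called 114. Each of the 4 cells of that comparison held 2 libraries.

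The gene with the smallest p was Malat1, a nuclear long noncoding RNA, with a log2 difference of -1.91 in WT and -0.36 in Mir139KO (edgeR interaction, adjusted p = 0.114). Malat1 had 298.6 and 338.4 CPM in the low-share WT libraries and 81.1 to 122.8 CPM in the other 6. Next by edgeR's interaction test across all genes were the immunoglobulin gene Igkv15-103 and Serp1, which protects new membrane proteins (adjusted p = 0.285 each). These 3 genes were chosen after their values were seen. Igkv15-103 had 17.9 and 17.4 CPM in the low-share WT libraries and 66.7 to 110.1 CPM in the other 6, so here too a pair of WT libraries lay apart.

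**Figure D5:**
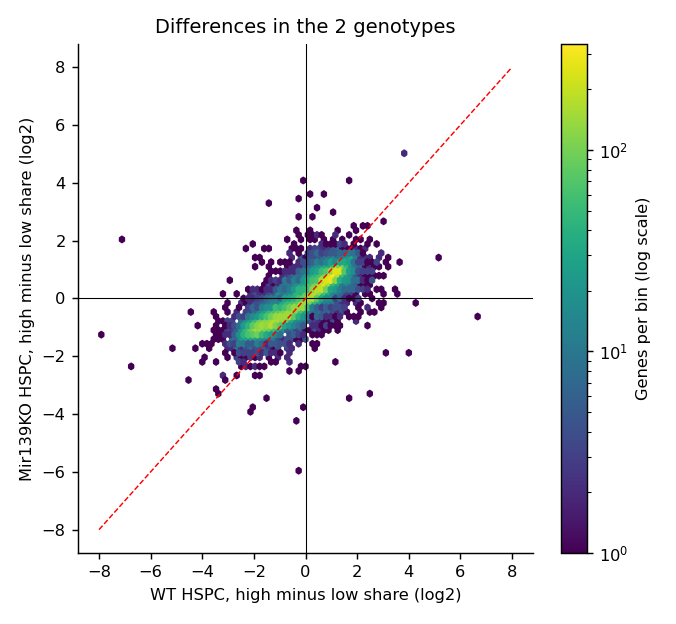
Log2 difference between high-share and low-share libraries of each gene in WT HSPCs (x axis) and Mir139KO HSPCs (y axis), as a density of genes on a log colour scale, with a dashed line at equal values. Most genes lie in the quadrants of equal sign (89.8%), and the cloud is wider along the WT axis (SD 1.16) than along the Mir139KO axis (SD 0.79).

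Beside the MLL-AF9 cells, the classes kept an order. Histone genes took 0.221 to 0.934% of counts outside Gm26917 in MLL-AF9 libraries, below the low-share and high-share HSPC libraries. RNAs of the 7SL and 7SK class, mostly Rn7sk, took 0.441 to 0.663%, again the lowest of all. Mitochondrially encoded messages, the lowest in high-share libraries, took 1.13 to 2.60%, the most of all. These cells had been cultured and transformed, and the part of cell state in this order was not tested.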

How the data were processed

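RNA-seq had been made from total RNA of 8 HSPC and 6 MLL-AF9 libraries after depletion of ribosomal RNA. According to the study's methods, the authors aligned reads with STAR 2.5.3e to GRCm38 and counted them per gene with featureCounts 1.6.0, and the deposited values are raw counts. The strand setting is not given in the sources used here, so a gene and its antisense partner cannot be told apart. Both deposited tables held equal values in all 735700 shared cells, and 10 columns that match no sample were not used.

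Libraries were divided at 25% of counts assigned to Gm26917. Genes that reached 10 counts in 4 or more of the 8 HSPC libraries were fitted with edgeR 4.0.16 (limma 3.58.1, R 4.3.3, TMM, quasi-likelihood test, genotype as covariate, Benjamini-Hochberg adjusted p of 0.05, prior count 2). CPM values are on this scale unless stated otherwise. GC content was corrected with a spline of 5 degrees of freedom for each library, and DESeq2 1.42.0 was an alternative. GENCODE M21 placed 52403 of 52550 genes. The procedure was tested on simulated counts.

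Members and gene lists were chosen with earlier results of these data known. Named genes were the 10 largest differences each way among called genes without overlap at a log2 CPM of 5 or more, the ribosomal RNA-like genes, and in each list the 2 most abundant and the 2 most different members. Other list members named in the text were chosen after their values were seen. The planned permutation tests of the Gm26917 share are not printed, because the share divided the libraries. Some items are not reported here.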

Additional observations from a re-analysis of the deposited data

Results flagged for a closer look

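In each class of 4 libraries, a library was taken to stand apart when its gap to the nearest other on the log2(CPM + 1) scale, divided by the range, exceeded Dixon's 95% critical value. Of 266 groups over 133 named genes 17 did so, and chance alone gives about 1 in 20 groups.

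In the high-share libraries, WT HSPC replicate 3 was lowest for CT010467.1 (8.34 CPM, others 641.8 to 1049) and the proteasome ATPase gene Psmc6 (4.56 CPM, others 7.80 to 8.53). Mir139KO HSPC replicate 1 was lowest for the ATP synthase gene Atp5a1 (830.2 CPM, others 1034 to 1061), the proteasome gene Psmd2 (259.6 CPM, others 353.4 to 362.2) and the ribosomal RNA transcription factor Ubtf (242.0 CPM, others 312.6 to 318.1). It was highest for the ribosomal protein gene Rpsa (4532 CPM, others 3990 to 4030). Mir139KO HSPC replicate 4 was highest for the heat shock gene Hspa1a (1.07 CPM, others 0 to 0.0828).

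In the low-share libraries, WT HSPC replicate 2 gave 7 of the 17 values. It was lowest for the late neutrophil genes Ltf (29.0 CPM, others 870.0 to 1268) and Ngp (50.9 CPM, others 1309 to 1884) and for the macrophage growth factor receptor gene Csf1r (156.1 CPM, others 233.0 to 251.8). It was highest for mt-Rnr1 (655.6 CPM, others 16.3 to 25.6), Hlf (16.4 CPM, others 10.2 to 10.7), the cytokine receptor gene Il2rb (38.9 CPM, others 31.5 to 32.3) and the proteasome gene Psmd14 (68.8 CPM, others 51.7 to 53.4). WT HSPC replicate 1 was lowest for the basophil protease genes Mcpt8 (114.1 CPM, others 230.2 to 256.2) and Prss34 (292.2 CPM, others 560.2 to 626.5). Mir139KO HSPC replicate 3 was lowest for Ccr2 (25.5 CPM, others 69.9 to 84.7).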

How the results depend on the processing

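Against 10449 genes called between the classes, 6654 were called with GC correction, 6885 with all 14 libraries in one fit and 4933 with an absolute log2 difference of at least 1. Leaving out each library in turn gave 9655 to 10488, and leaving out WT HSPC replicates 2 and 3 together, chosen after seeing the data, gave 9256. The interaction with genotype called 143 genes with no filter on low counts, 114 with DESeq2 and 0 to 3 with each library left out, where a cell left with 1 library is assumed to vary like the others. The difference in share between genotypes ranged from -1.17 to 4.98 points with each library left out. The cause of these changes was not tested.

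Replicate numbers were shared by WT and Mir139KO HSPCs, but deviations of same-numbered libraries correlated at -0.635, 0.723, -0.656 and 0.515. These signs follow the classes, since numbers 1 and 3 join a high-share with a low-share library and numbers 2 and 4 do not, so they do not show whether the numbers pair the libraries, and the labels name nothing shared under a number. With the replicate block 9147 genes were called, and 4952 with the replicate block and GC correction.

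Medians of lists turned with GC correction to 0.058 (mitochondrially encoded mRNAs), 0.15 (cell cycle), 0.073 (mast cell, basophil and eosinophil), 0.73 (nuclear long noncoding RNAs) and 0.096 (interferon-stimulated). With total counts only they turned to -0.18 (erythroid), -0.38 (monocyte), -0.29 (B lymphoid), -0.016 (plasma cell), -0.25 (T and NK cell), -0.23 (proteasome), -0.25 (glycolysis), -0.18 (megakaryocyte), -0.37 (immediate early), -0.497 (late neutrophil) and -0.67 (RNA polymerase I). Of 112 called named genes, 14 turned. With total counts only, Spi1 was at -0.035, Irf9 at -0.19, Calr at -0.16, Psmd2 at -0.16, Prpf8 at -0.27, Ubtf at -0.25 and Atp5a1 at -0.15. With GC correction, Spi1 was at -0.19, Ubtf at -0.054, Zfp445 at 0.0052, Gas5 at 0.67 and Uty at 0.095. With the replicate block and GC correction, Spi1 was at -0.22, Aqp1 at -0.11, Fcer1a at 0.052, Ubtf at -0.21, Ms4a2 at 0.28, Atp5a1 at -0.10, Zfp445 at 0.017, Klre1 at 0.34 and Gas5 at 0.84.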
